A study of Mus musculus with 6 samples.

Results

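The 6 mouse Dlx genes, Dlx1 to Dlx6, were examined in trunks of embryos at embryonic day 9.5. They were found by matching the RefSeq accession of each array probe to a gene symbol. Each gene had 1 probe, so 6 of 39429 probes that are not controls belong to the family, and all 6 genes were among the 19794 genes tested. Of these, 14210 have a gene symbol, and the others are accessions or probes without one, each counted as a gene in every share of all genes. The groups compared were wild type and Arid3b-null. The null embryos lack Arid3b, which encodes a DNA-binding protein of the AT-rich interaction domain family. Each group had 3 arrays, and each array held RNA pooled from 4 embryos. The trunk piece, forelimb buds included, began at the otic vesicle and ended at somite 15. The strain, sex and allele are not given in the sources used here. The spread between arrays is a spread between pools of embryos.

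Dlx genes encode homeodomain transcription factors related to Distal-less of the fly. In mammals they lie as convergent pairs, Dlx1 with Dlx2, Dlx3 with Dlx4 and Dlx5 with Dlx6, and the members of a pair are known to share regulatory DNA and often expression sites. At this stage they are known from the neural crest mesenchyme of the pharyngeal arches, the surface ectoderm, the apical ectodermal ridge at the edge of the limb bud, the otic vesicle and the ventral forebrain, the last of which lies outside the dissected piece. Endothelin signalling in the arches and BMP signalling in ectoderm are known inputs to these genes.

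The RefSeq promoter table, of build GRCm38.p6, had an entry for 2 of the 6 genes, Dlx1 and Dlx2, and for Dlx6os2, a non-coding RNA antisense to Dlx6. The 250 bases before each start are shown because the first 2 belong to the pair whose probes moved least, and the third lies inside the Dlx6 gene. Each runs 5′ to 3′ on the gene's own strand, and capitals mark TAAT, the core of many homeodomain sites, on either strand. The Dlx1 window is chr2:71529195-71529444 on the plus strand, the Dlx2 window chr2:71546755-71547004 on the minus strand and the Dlx6os2 window chr6:6865151-6865400 on the minus strand.
Dlx1: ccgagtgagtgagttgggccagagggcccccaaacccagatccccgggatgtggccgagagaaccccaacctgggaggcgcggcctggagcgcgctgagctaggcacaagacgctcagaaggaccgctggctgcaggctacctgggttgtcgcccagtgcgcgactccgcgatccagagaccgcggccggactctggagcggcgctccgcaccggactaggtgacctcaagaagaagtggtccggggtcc
Dlx2: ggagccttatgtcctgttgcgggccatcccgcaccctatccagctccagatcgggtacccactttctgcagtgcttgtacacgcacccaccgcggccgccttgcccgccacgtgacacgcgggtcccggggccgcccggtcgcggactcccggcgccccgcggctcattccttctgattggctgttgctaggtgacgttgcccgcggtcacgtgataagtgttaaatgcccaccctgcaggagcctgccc
Dlx6os2: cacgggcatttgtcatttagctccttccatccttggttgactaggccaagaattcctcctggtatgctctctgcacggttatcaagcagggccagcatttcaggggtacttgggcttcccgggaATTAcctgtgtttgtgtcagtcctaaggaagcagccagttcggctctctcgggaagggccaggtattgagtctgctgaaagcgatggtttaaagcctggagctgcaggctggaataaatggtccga
TAAT was found 0 times in the Dlx1 and Dlx2 windows and 1 time in the Dlx6os2 window, where it reads ATTA. It was present in 54.9% of 32851 promoter windows of this length. The longer TAATTA, which contains TAAT, and the AT-rich AATTAA were found 0 times in each of these 3 windows, against 4.84% and 10.4% of all windows, both strands searched. GC content was 68.0% for Dlx1, 66.4% for Dlx2 and 52.4% for Dlx6os2, against a median of 52.4% over all windows.

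Dlx4 and Dlx5 rose in Arid3b-null trunks, 1 member each of different pairs. Dlx4 was 2.71-fold and Dlx5 1.86-fold higher than in wild type. Their partners Dlx3 and Dlx6 read lower, without passing the test, and Dlx1 and Dlx2 did not pass either. In all, 2 of 6 members were called higher and 0 lower, where 13.6% of all tested genes were called higher, 12.9% lower and 26.6% either way (limma, Benjamini-Hochberg over all genes, threshold 0.05). These counts come from a fit without the slide, and with the slide as a block Dlx3 was called lower, as were 11.9% of all genes. The median log2 change was -0.18 over the 6 members and -0.04 over all genes. All values are log2 signals relative to the 75th percentile of the same array, and all changes are Arid3b-null minus wild type. Levels are not compared between genes, since each probe has its own brightness.

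**Figure D1:**
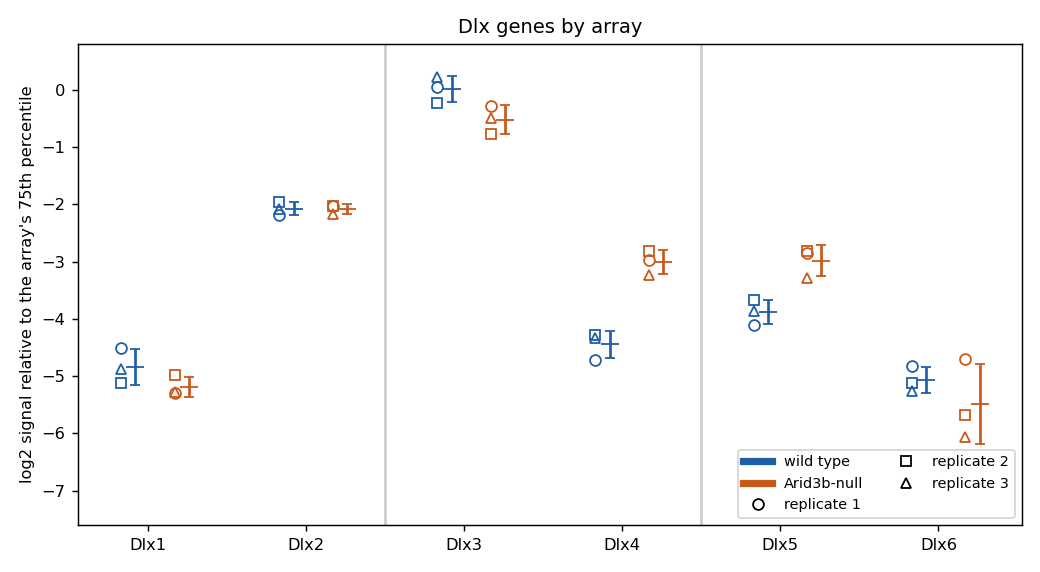
Log2 signal of the 6 Dlx probes relative to each array's 75th percentile (vertical axis) for 3 wild-type (blue) and 3 Arid3b-null (orange) arrays; symbols mark the replicate, which is also the slide, and bars the mean and SD. Dlx4 and Dlx5 have all Arid3b-null arrays above all wild-type arrays, Dlx3 has them all below, and the groups of Dlx1, Dlx2 and Dlx6 overlap.

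Arid3b, reported first as a check of the labels, read 2.18, 2.57 and 1.97 in wild type and 0.54, 0.65 and 0.46 in Arid3b-null on its brightest probe, a log2 change of -1.69 ± 0.17 (SE), which leaves 31.0% of the wild-type signal. Its other probes changed by -1.90 and -3.23, and the position of the probes relative to the deletion was not analysed here. The same-numbered arrays of both groups shared a slide and a scan. Across arrays 61.6% to 68.8% of spots were well above background. The forelimb bud list, with Tbx5 as its defining marker, was measured on all 6 arrays for all 14 of its members. Among forebrain markers, Six3, Lhx8, Gad1 and Gad2 were too dim to be tested.

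Dlx1 and Dlx2, the pair known for specifying the arch mesenchyme and forebrain interneurons, did not pass the test, and the groups of each overlap. Dlx1 read -4.50, -5.13 and -4.88 in wild type and -5.30, -4.98 and -5.28 in Arid3b-null. The groups overlap, because Arid3b-null replicate 2 lay above wild type replicate 2. The change was -0.35 ± 0.18 (SE, limma adjusted p = 0.210), with a 95% interval from -0.79 to 0.09. Within slides it was -0.79, 0.14 and -0.40, so 1 slide went the other way. The Dlx1 probe was dim, at 15.9 to 37.2 units after background subtraction.

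Dlx2 was the steadiest member. It read -2.19, -1.95 and -2.08 in wild type and -2.03, -2.03 and -2.18 in Arid3b-null, so the arrays of both groups interleave. The change was -0.00 ± 0.11 (SE, limma adjusted p = 0.989). Its 95% interval, from -0.27 to 0.27, lies wholly below that of Dlx4. Its signal of 145 to 184 units was well above background on all arrays. The antisense RNA of the locus, Dlx1as, was above background on 0 of 6 arrays and was not tested.

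Dlx3, known for roles in placenta, skin and hair and in teeth and bone, read lower in Arid3b-null. It read 0.05, -0.24 and 0.22 in wild type and -0.29, -0.78 and -0.49 in Arid3b-null. All Arid3b-null arrays lay below all wild-type arrays, though the nearest values, -0.24 and -0.29, almost touch. An arrangement of this kind was seen in 23.2% of all genes. The change of -0.53 ± 0.18 (SE), or 69.2% of the wild-type signal, did not pass (limma adjusted p = 0.0679), with a 95% interval from -0.95 to -0.11. Within slides it was -0.34, -0.54 and -0.71. With the slide as a replicate block Dlx3 was called lower (limma adjusted p = 0.0411), where 11.9% of all genes were. It was also called with normexp and each array's median background (0.0480) and with median scaling (0.0483), so the call turns on the setting while the direction did not change in any alternative. The Dlx3 probe was bright, at 360 to 874 units.

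Dlx4, the partner of Dlx3 and one of the less studied members of the family, had the largest change. It read -4.72, -4.29 and -4.34 in wild type and -2.97, -2.82 and -3.23 in Arid3b-null. In processed signal this is 32.1, 31.4 and 30.2 units against 79.8, 87.4 and 71.0 units. The wild-type signal was thus dim, within the range of the Dlx1 probe. All Arid3b-null arrays lay above all wild-type arrays. Groups apart in this order, by any margin, were seen in 23.0% of all genes. The change was 1.44 ± 0.17 (SE, limma adjusted p = 0.00241), with a 95% interval from 1.04 to 1.84. A change at least as high was seen in 1.47% of all genes. Within slides the rise was 1.75, 1.47 and 1.10. Size and direction depended on the background correction. With normexp and each array's median background the rise was 1.68-fold (limma adjusted p = 0.00632). With normexp on each spot's local background Dlx4 read lower, at -0.17 (limma adjusted p = 0.879), a setting in which 2 genes in all were called. The same correction was also run with 10 spots far under their local background left out, a choice made after seeing the data. Dlx4 was then 1.60-fold higher and was called (limma adjusted p = 0.0110).

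Dlx5, known from the apical ectodermal ridge, the otic vesicle, the distal arches and bone, also rose. It read -4.11, -3.68 and -3.86 in wild type and -2.84, -2.82 and -3.29 in Arid3b-null. In processed signal this is 48.9, 47.9 and 42.1 units against 87.1, 87.7 and 68.2 units, so the wild-type signal was dim. The groups do not overlap, and Arid3b-null replicate 3 was the closest to wild type. All Arid3b-null arrays lay above all wild-type arrays in 23.0% of all genes. The change was 0.90 ± 0.18 (SE, limma adjusted p = 0.0136), with a 95% interval from 0.47 to 1.33. A change at least as high was seen in 5.10% of all genes. Within slides the rise was 1.27, 0.86 and 0.57, the same order of slides as for Dlx4. With normexp and each array's median background the rise was 1.43-fold (limma adjusted p = 0.0350). The call was lost without a filter on dim probes (limma adjusted p = 0.0554) and with normexp on local background once far spots were left out (0.0537). With normexp on local background and all spots kept, Dlx5 read lower, at -0.28 (0.778). Without 1 array, whichever it was, Dlx5 was still called, at log2 rises of 0.79 to 1.05.

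Dlx6, which lies next to Dlx5 and is known to act with it in the jaw and limb, read lower without passing the test. Dlx6 read -4.83, -5.12 and -5.27 in wild type and -4.71, -5.68 and -6.07 in Arid3b-null. Arid3b-null replicate 1 was the highest of all 6 arrays and replicate 3 the lowest, the widest spread of any member in a group (SD 0.70, n = 3, against 0.22 in wild type). The change was -0.42 ± 0.34 (SE, limma adjusted p = 0.408), with a 95% interval from -1.23 to 0.40. Within slides it was 0.12, -0.57 and -0.80. The probe was the dimmest of the family, at 9.96 to 29.7 units, and was well above background on 2 of 3 Arid3b-null arrays. Without Arid3b-null replicate 1 Dlx6 was called lower, at -0.81 (limma adjusted p = 0.0406).

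The non-coding RNAs of this locus gave 1 measured transcript. Dlx6os2 read -2.83, -3.27 and -2.86 in wild type and -2.77, -4.00 and -3.22 in Arid3b-null. The change was -0.35 ± 0.31 (SE, limma adjusted p = 0.449), and the groups overlap. As for Dlx6, Arid3b-null replicate 1 was the highest array. Dlx6os1, the long RNA that contains the Evf2 transcript, was above background on 0 of 6 arrays.

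The members of a pair were then compared with each other, as the difference in their changes. Dlx4 changed by 1.97 ± 0.31 (log2, SE) more than Dlx3, with within-slide differences of 2.09, 2.01 and 1.82. The per-array value of Dlx4 minus Dlx3 was -4.77, -4.05 and -4.56 in wild type and -2.68, -2.04 and -2.74 in Arid3b-null, so the groups do not overlap. Dlx6 changed by -1.31 ± 0.40 relative to Dlx5, with within-slide differences of -1.14, -1.43 and -1.37. For Dlx6 minus Dlx5 the arrays read -0.72, -1.44 and -1.40 in wild type and -1.87, -2.87 and -2.78 in Arid3b-null, again apart. Dlx2 changed by 0.35 ± 0.27 more than Dlx1, with within-slide differences of 0.96, -0.22 and 0.29 and arrays that overlap. The two-sided exact permutation p was 0.1, 0.1 and 0.3 for these 3 pairs in that order (0.15, 0.15 and 0.3 adjusted over the 3). With 3 arrays against 3 the test cannot go below 0.1, so it cannot reach 0.05. It also exchanges arrays across slides, and neither it nor the SE of a pair difference uses the pairing by slide. With normexp and each array's median background the differences were 1.24, -0.52 and 0.01 in the same order.

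**Figure D2:**
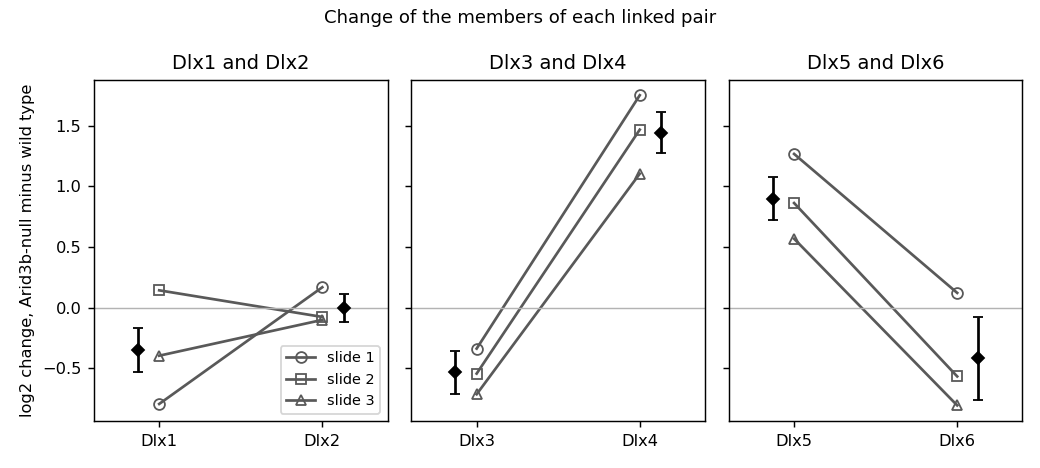
Log2 change, Arid3b-null minus wild type (vertical axis), of the members of each linked pair; open symbols joined by lines are the 3 slides, and black diamonds the limma estimate with its SE. The lines of Dlx3 and Dlx4 climb on all slides and those of Dlx5 and Dlx6 drop on all slides, while those of Dlx1 and Dlx2 cross.

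The protein-coding genes around the pairs were read from gene order in RefSeq, assembly GRCm38.p6, with 3 genes on each side. No other coding gene lies within a pair. Of 18 neighbours 15 were tested, 4 (26.7%) were called higher, 2 (13.3%) lower and 9 not called, against 13.6% higher and 12.9% lower of all genes. Beside Dlx3, Itga3, an integrin subunit, rose 2.09-fold and Pdk2, a pyruvate dehydrogenase kinase, 1.48-fold, while Samd14, and Kat7 and Fam117a on the Dlx4 side, did not pass. Itga3 read -1.44, -0.95 and -1.82 in wild type and -0.44, -0.29 and -0.29 in Arid3b-null. Its groups do not overlap, an order seen in 23.0% of all genes. Its call was lost with dim probes kept in the test, with wild type replicate 1 left out and with Arid3b-null replicate 3 left out (limma adjusted p = 0.0571, 0.0515 and 0.0514). The Pdk2 call was also lost with dim probes kept (0.0528). Around Dlx1 and Dlx2, Pdk1, a kinase of the same enzyme complex as Pdk2, rose 4.07-fold and Slc25a12, a mitochondrial carrier, changed by -0.80 ± 0.12. The gene next to Dlx2, Itga6, read higher by 0.43 ± 0.15 (limma adjusted p = 0.0727) and was called in 4 alternatives. Metap1d, next to Dlx1, read 0.08 on its brighter probe, but 0.38 when its 2 probes were averaged (limma adjusted p = 0.0279). Hat1 did not pass.

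Around Dlx5 and Dlx6, the genes next to the pair were not called. Sem1, beside Dlx6, changed by -0.38 ± 0.14 (limma adjusted p = 0.0897), and Sdhaf3, beside Dlx5, by -0.16 ± 0.12 (0.350). Sem1 was called lower with normexp and each array's median background and without Arid3b-null replicate 1 (0.0496 and 0.0437). The third gene beyond Dlx5, Asns, the asparagine synthetase gene, rose 2.18-fold, from 3.74, 3.82 and 3.92 to 4.81, 5.25 and 4.78. Dync1i1 changed by -0.46 ± 0.12 (0.0356), a call lost in most alternatives, and Slc25a13 did not pass. Tac1, Tac4 and Rapgef4 were too dim to be tested.

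**Figure D3:**
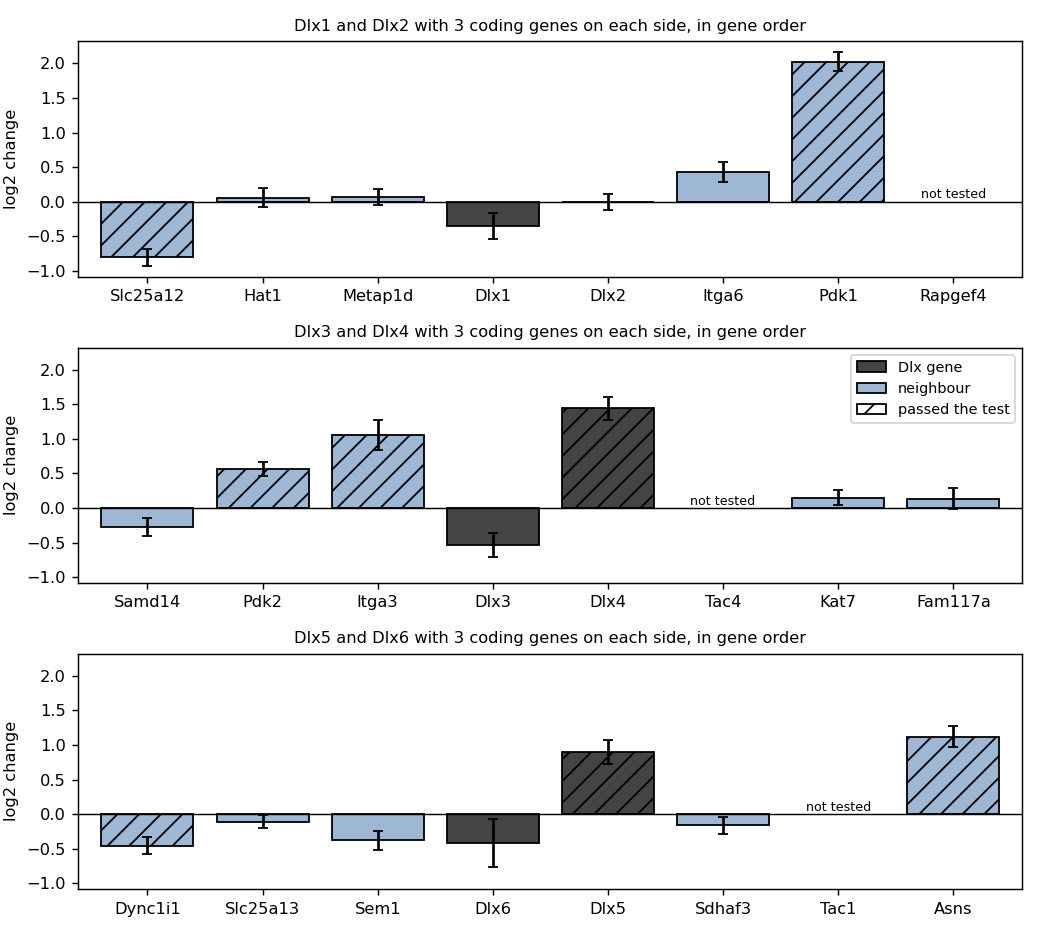
Log2 change with its SE (vertical axes) for the 3 Dlx pairs (dark bars) and 3 coding genes on each side (pale bars), in gene order and not to distance; hatched bars passed the test. Dlx4 and Dlx5 are hatched beside unhatched partners, and the highest bar is Pdk1, 2.02, near Dlx2.

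Genes of the tissues and signals in which Dlx genes are known to act were read from 8 lists with 115 distinct genes, 17 of them in more than 1 list. The lists were chosen with earlier results known, and their counts are read against 13.6% higher and 12.9% lower among all genes. Many of the counts called higher fell when an array was left out, as did those of all genes (1661 to 2047 called higher, from 2694). Without Arid3b-null replicate 3 some rose, to 9 for the apical ridge, 11 for surface ectoderm, 6 for neural crest and 7 for BMP signalling. Surface ectoderm genes were the most often higher: 10 of 15 (66.7%, against 13.6% of all genes) were called higher and 0 lower, with a median log2 change of 0.75. Krt19, a keratin, rose 4.96-fold, Tfap2a, an AP-2 factor of ectoderm and crest, 2.26-fold and Wnt6 1.68-fold. The other 5 members were not called. Of these, Trp63 read -0.02 ± 0.18 (SE), while Epcam, Cdh1, Grhl3 and Cldn6 read higher. All 15 members were well above background on all arrays, and their summed linear signal, in multiples of the array's 75th percentile, was 34.0 to 48.0 in wild type and 70.2 to 81.4 in Arid3b-null. Such a sum weighs bright probes most, and 51.2% of this one came from Krt18. Without Krt18 it was 16.9 to 20.9 and 36.1 to 38.8. Dlx4 and Dlx5 rose beside this list, and its part in their rise was not tested. Whether the list's signal came from surface ectoderm or from another epithelium was not tested either. In these bulk samples, more cells of a type and more RNA per cell cannot be told apart.

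Among genes of the apical ridge and limb ectoderm, a known site of Dlx5 expression, 7 of 16 tested members (43.8%, against 13.6% of all genes) were called higher and 0 lower (median 0.45). The count was 4 without wild type replicate 1 or 3, 4 without Arid3b-null replicate 1 or 2, and 2 with dim probes kept. Without Arid3b-null replicate 3 the count was 9. Jag2, a Notch ligand, rose 2.68-fold, Fgf9 2.10-fold and the homeobox gene Msx1 1.65-fold. When dim probes were kept in the test, Msx1 did not pass (limma adjusted p = 0.0551). The ridge's defining Fgf8 read 0.26 ± 0.16 higher and Fgf4 -0.20 ± 0.20, both without passing, and the limb ectoderm factor Sp8 read 0.02 ± 0.11. These 3 were chosen after their values were seen. Fgf17, Sp9 and En1 were too dim to be tested. The summed signal of the list was 22.7 to 26.0 in wild type and 29.5 to 35.2 in Arid3b-null.

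Among otic vesicle genes 7 of 13 tested members were called higher and 1 lower (median 0.48). Of the 7, Fgf3 was tested only through its brighter group. Without it 6 of 12 were called higher (median 0.45), against 13.6% of all genes. The count of 7 was 3 without wild type replicate 1, 4 without Arid3b-null replicate 2 and 4 with dim probes kept. Lmx1a, a LIM homeobox gene, rose 2.23-fold, and Fgf10 1.79-fold. Fgf3, an inducer of the ear, was well above background on 0 wild-type and 3 Arid3b-null arrays, and was at least 2.67-fold higher (measured means -6.78 and -4.79, limma adjusted p = 0.00787, which is no support since the filter chose it by that difference). That bound sets the wild-type mean at the lowest signal among probes well above background, array by array. With normexp and each array's median background Fgf3 read 1.28-fold higher, under that bound, and did not pass (limma adjusted p = 0.0815). Pax2, a marker of the vesicle, read -0.02 ± 0.22 and did not pass, and was chosen after its values were seen. Oc90, Hmx2 and Otx1 were too dim to be tested. The list's summed signal was 14.3 to 16.5 in wild type and 17.5 to 20.3 in Arid3b-null.

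In the arches, where endothelin acts through Dlx5 and Dlx6, the list was mixed. Of 23 tested genes 6 were called higher and 3 lower (median 0.26). As shares, 26.1% were higher, against 13.6% of all genes, and the share called lower was close to the 12.9% of all genes. The 6 became 1 without wild type replicate 1 or 3, 3 without wild type replicate 2, 3 or 2 without an Arid3b-null array (2 for replicate 2), and 0 with dim probes kept. Pou3f3, a POU factor of the proximal arch, changed by -1.53 ± 0.16, while Msx1 rose. Edn1, which encodes endothelin-1, rose 2.04-fold (limma adjusted p = 0.0186). Its call was lost with dim probes kept (0.0674), without wild type replicate 1 (0.0644) or 3 (0.0563) and without Arid3b-null replicate 3 (0.0534), and with normexp on local background it read lower, at -0.31. Its receptor gene Ednra read 0.32 ± 0.14 higher without passing. Hand1 and Hand2, known to depend on Dlx5 and Dlx6 in the distal arch, changed by 0.06 ± 0.25 and -0.18 ± 0.13, and neither passed. Gsc, another such gene, read 0.63 ± 0.35 higher, also without passing. These 5 genes were chosen after their values were seen. Summed signal was 123 to 141 in wild type and 144 to 149 in Arid3b-null, of which 53.8% came from Dlk1, a gene that was not called. Without Dlk1 the order turned, with 63.7 to 67.9 in wild type and 60.5 to 62.9 in Arid3b-null.

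Neural crest genes were called higher in 5 of 15 cases (33.3%, against 13.6% of all genes) and lower in 1 (median 0.30). Besides Tfap2a, Foxd3, a factor of early crest, rose 2.10-fold. Prrx1 and Twist1, known from crest mesenchyme, did not pass, and both were chosen after their values were seen. Summed signal was 48.0 to 55.6 in wild type and 57.8 to 63.9 in Arid3b-null. In the forelimb bud list 2 of 14 members (14.3%) were called higher and 3 (21.4%) lower (median 0.04), the first close to the 13.6% of all genes. The 3 lower became 1 without any 1 wild-type array, without Arid3b-null replicate 2 and with dim probes kept, and with dim probes kept the 2 higher became 1. The list held Lhx9 at -1.45 ± 0.13 and Fgf10 and Msx1 among the higher.

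Of 20 genes of BMP signalling 6 were called higher and 1 lower (median 0.30), where 13.6% of all genes were called higher and 12.9% lower. Among the 6, Bmp2, Bmp4, Msx1 and Msx2 were also counted as higher in the apical ridge list. Msx1 and Msx2 were counted in the arch list too, so the counts of these lists are not separate observations. The 6 became 2 without wild type replicate 1, 3 without wild type replicate 3, 2 without Arid3b-null replicate 1 or 2, and 1 with dim probes kept. Without Arid3b-null replicate 3 the 6 became 7. The 1 lower became 2 without Arid3b-null replicate 2. Grem1, which encodes a BMP antagonist, rose 1.93-fold, with Msx1 also higher, and Id4 changed by -1.32 ± 0.15. In the list of forebrain and GABAergic neurons, the setting in which Dlx genes are best known, 0 of 8 tested members were called higher and 5 lower, with a median of -0.82, or -0.58 with Nkx2-1 at its bound. Nkx2-1 was tested only through wild type. Without it 4 of 7 were called lower (median -0.46), against 12.9% of all genes. Gsx2, which acts before Dlx genes in the forebrain, changed by -1.47 ± 0.15. Nkx2-1 was well above background on 3 wild-type and 0 Arid3b-null arrays and was at least 1.63-fold lower (measured means -5.67 and -8.23, limma adjusted p = 0.00236, again no support). With normexp and each array's median background Nkx2-1 changed by -0.22, or 1.17-fold lower, under that bound, and did not pass (limma adjusted p = 0.180). Summed signal of this list was 6.07 to 8.10 in wild type and 4.24 to 5.15 in Arid3b-null.

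**Figure D4:**
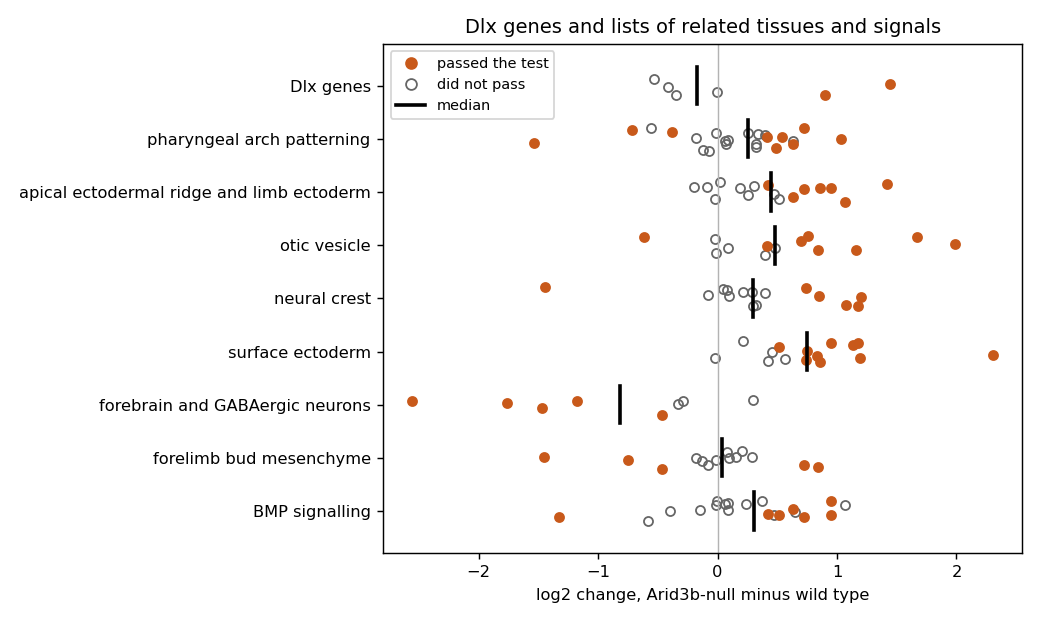
Log2 change, Arid3b-null minus wild type (horizontal axis), of the Dlx genes and the tested members of 8 lists; each point is a gene, filled where it passed the test, and black lines are medians. Surface ectoderm has the highest median, 0.75, the forebrain and GABAergic list the lowest, -0.82, and the Dlx genes fall on both sides of 0.

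For the 5 Dlx genes well above background on all arrays, the genes with the most alike profile were found among 13504 others. Likeness was the root mean square difference of mean-centred log2 values over the 6 arrays, which share slides and the difference between groups. It is a description, and a small difference is easy to find for a gene with a small change. Dlx5 was closest to Pkp2, which encodes plakophilin of cell junctions, at 0.03 log2 units, then to Grhl2, a grainyhead factor of epithelia, and to C030034I22Rik, both at 0.06. Pkp2 changed by 0.88 ± 0.18 and Grhl2 by 0.83 ± 0.16. Dlx4 was closest to Upk3bl at 0.11 and to Tmem74b and Jdp2, an AP-1 repressor, at 0.12 each. Jdp2 changed by 1.49 ± 0.13. Dlx3 was closest to Fcer2a, Hspb9 and Lyzl6, at 0.08 each, none of which passed the test. Dlx2 was closest to Maged1 at 0.03, to Scrn2 at 0.03 and to Chek1 at 0.04. Maged1 encodes a protein described as binding Dlx proteins, and it changed by -0.02 ± 0.11. Sphk1 and Cd83 were among the 3 closest to Dlx1, at 0.08 each.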

How the data were processed

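Per the labels' protocols, Cy3-labelled RNA was hybridised to Agilent arrays in 1 colour. Per the file headers, Feature Extraction made the deposited intensity values: a background-subtracted processed signal, and median signals of each spot and its local background. The deposited log2 table (24181 rows, medians 6.77) correlated at 0.999 to 1.00 with each array's processed signal. Its scale was not stated and it served as an alternative.

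Here, log2 processed signal was set against each array's 75th percentile, without outlier spots. Accessions named 1 symbol for 67.0% of probes (RefSeq, GRCm38.p6). A probe was tested if all arrays of either group were well above background (24421 probes). The brightest probe stood for a gene. limma 3.58.1 in R 4.3.3 tested 19794 genes, Arid3b-null minus wild type, with Benjamini-Hochberg adjustment. It was also run on simulated data, with an outcome not reported here, and a change that was not called is not read as absent. Same-slide arrays deviated together (r = 0.16, 0.39 and 0.28), so slide and replicate number pair the samples. The main fit and the permutation test did not use this pairing, and the slide block was an alternative.

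The members and lists were chosen with earlier results of these data known. Named genes are the Dlx genes, their loci and neighbours, the called genes of a list that had its lowest adjusted p-values (at most 3), and 3 alike profiles each; some of these genes are not reported here. Alternatives were background correction, scaling, filter, probe choice, slide block and left-out arrays. The files hold no mean signal, so normexp (offset 50) used the median signal.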

Additional observations from a re-analysis of the deposited data

How the results depend on the processing

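Under 16 alternatives the direction of Dlx4 and Dlx5 changed only with normexp on each spot's local background, where Dlx4 was at -0.17, Dlx5 at -0.28, Edn1 at -0.31 and Fgf3 at -0.76. In that setting 2 genes in all were called higher and 0 lower by limma, 0 of them Dlx genes or members of the lists, and the pair differences were 0.27 for Dlx3 and Dlx4 and -0.74 for Dlx5 and Dlx6. In wild type replicates 2 and 3, 10 spots lay more than 30 units under their local background. Leaving these out, a setting chosen after seeing the data, gave 1 Dlx gene called higher and 1 lower, with Dlx3 at -0.49 (called), Dlx5 at 0.48 (not called) and pair differences of 1.17 and -0.54. With normexp and each array's median background 1 Dlx gene, Dlx3 at -0.49, was called lower, and pair differences were 0.014 for Dlx1 and Dlx2, 1.24 and -0.52. With median scaling Dlx3 was at -0.53 and 1 Dlx gene was called lower. Without a filter on dim probes 1288 genes were called higher and 998 lower, and 1 Dlx gene was called higher, Dlx5 at 0.90 not passing. With the replicate block, here the slide, Dlx3 at -0.53 made 1 Dlx gene called lower, and no other Dlx call changed. Leaving out 1 array gave 1661 to 2047 genes called higher and 1206 to 2038 lower, 0 to 1 Dlx genes called lower, and Dlx6 at -0.81 to -0.13. In the other alternatives the Dlx calls stayed as reported. The Dlx1 and Dlx6 probes were dim, at 15.9 to 37.2 and 9.96 to 29.7 units. Dlx4 and Dlx5 were dim in wild type too, at 30.2 to 32.1 and 42.1 to 48.9 units. Signals near background limit Dlx1, Dlx4, Dlx5 and Dlx6. One choice of background correction, normexp on local background with all spots kept, turned the direction of Dlx4 and Dlx5. With the far spots left out both read higher, Dlx4 at 0.68 (called) and Dlx5 at 0.48 (not called).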
